A study of Mus musculus with 7 samples.

Results

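The sodium pump subunit genes Atp1b1, Atp1b2 and Atp1b3, the pump regulator Fxyd1, the water channel genes Aqp1 and Aqp4 and the cation channel gene Trpv4 were followed in mouse choroid plexus exposed to red blood cells. They were taken by symbol from the count table, and all 7 of 7 were found among the 40873 genes analysed. The choroid plexus came from the lateral ventricles of wild-type CD-1 embryos, an outbred mouse stock, and was pooled at E15.5 (E, embryonic day), 24 h after treatment. The red blood cell group (3 libraries) received blood cells of a donor litter at E14.5 that had been collected into sodium citrate, washed in sterile saline and resuspended in it. The control group (4 libraries) received saline, and all 7 libraries belong to batch 1. Neither the labels nor the table say how many embryos and litters were pooled for a library or by what route the cells were given, so p-values measure the spread between these pools. In bulk tissue, fewer cells of a type and less RNA per cell cannot be told apart.

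The epithelium of the choroid plexus makes cerebrospinal fluid by moving sodium, and water with it, from blood to ventricle. The sodium pump (Na,K-ATPase) sits on the ventricular face of these cells, unlike in most epithelia. It is built from a catalytic alpha subunit and a beta subunit that the pump needs for folding and delivery to the membrane, and a small FXYD protein such as phospholemman (Fxyd1) tunes its activity. Aqp1 is the water channel of the ventricular membrane, while Aqp4 is known mainly from the end feet of astrocytes and from ependymal cells. Trpv4 is a cation channel that opens with cell swelling, warmth and lipid signals and lets calcium in.

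Aqp1, Fxyd1 and Trpv4 lay lower in every red blood cell library than in any saline library, and the 3 beta subunit genes and Aqp4 overlapped between the groups. The mean of Trpv4 with red blood cells was 0.693 times that with saline, that of Fxyd1 0.694 times and that of Aqp1 0.843 times. None of the 7 genes passed the test over all genes (edgeR quasi-likelihood test, Benjamini-Hochberg adjusted p under 0.05), where 0.0605% of the 14869 genes tested were called. At an unadjusted p under 0.05, 3 of the 7 were lower and 0 higher, where 4.48% of all genes tested were lower and 9.52% passed in either direction. Groups did not overlap for 3 of the 7, all lower with red blood cells, against 4.86% of all genes tested in that direction. DESeq2 called these 3 genes as lower, where it called 0.344% of 17162 genes as lower and 1.64% in either direction. By limma-voom none of the 7 was called. The 7 genes were chosen with earlier results of these data known, so these shares do not test them as a set.

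**Figure D1:**
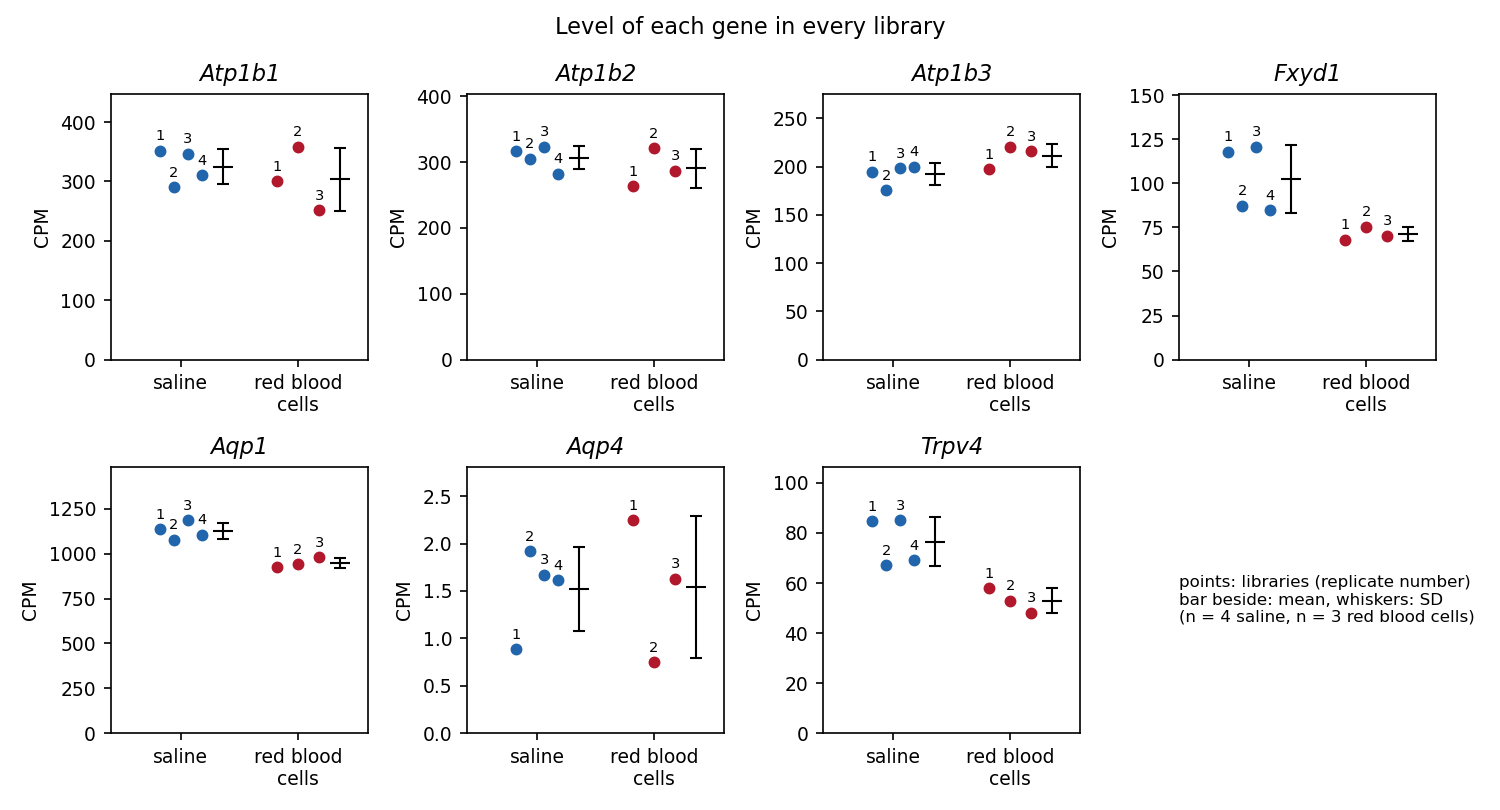
CPM (counts scaled to library size) of each gene in the 4 saline libraries (blue) and the 3 red blood cell libraries (red), numbered by replicate, with the mean and SD beside them and a y axis from 0. The red points of Aqp1 (924 to 981 CPM), Fxyd1 (68.1 to 75.5 CPM) and Trpv4 (48.1 to 57.9 CPM) lie below all blue points, and the other panels overlap.

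Levels of different genes were compared per exon length, as TPM (counts divided by exon length, scaled to the same total in every library), in the saline libraries. Aqp1 was the highest of the 7 at 1240 ± 69.98 TPM (SD, n = 4), which ranked 74 among all genes. Atp1b1 followed at 381 ± 38.5 TPM, and its lowest saline library (345 TPM) lay above the highest of Atp1b2 (243 TPM). Atp1b2 (226 ± 18.2 TPM) and Atp1b3 (223 ± 11.8 TPM) overlapped and could not be ordered. Trpv4 (69.7 ± 9.81 TPM) and Fxyd1 (65.2 ± 13.2 TPM) also overlapped. Aqp4 came last at 0.771 ± 0.229 TPM, under 98.3% of the genes tested. The exon length of Fxyd1 in the table is the union of all its annotated exons (4794 bases in 8 blocks), so transcripts that use fewer of them would have a higher level per length than given here.

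Aqp1 encodes aquaporin-1 and lies on chromosome 6 (55313284 to 55325540 of GRCm39, plus strand, 4 exon blocks). It had 924, 941 and 981 CPM in red blood cells 1, 2 and 3 and 1135, 1078, 1186 and 1105 CPM in saline 1, 2, 3 and 4. The gap between the groups, from 981 to 1078 CPM, was wider than the SD of either group. The means were 949 ± 29.3 CPM (SD, n = 3) and 1126 ± 46.4 CPM (SD, n = 4). The log2 fold change was -0.25 ± 0.06 (SE), with a 95% interval from -0.38 to -0.12 and an edgeR adjusted p of 0.140. Counts ran from 4784 to 9924 per library, so counting error was small beside the spread between libraries. Red blood cells themselves carry aquaporin-1 as a membrane protein. The summed CPM of 12 erythroid marker genes was 2272 to 2859 with red blood cells and 2222 to 3317 with saline, which overlapped, and its part in the Aqp1 values was not tested.

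Trpv4 lies on chromosome 5 (114760213 to 114796497, minus strand, 16 exon blocks). It had 57.9, 53.0 and 48.1 CPM in red blood cells 1, 2 and 3 and 84.8, 67.1, 85.1 and 69.0 CPM in the saline libraries. Saline 2 and 4 were the lowest of their group and still lay above every red blood cell library. The means were 52.99 ± 4.88 CPM (SD, n = 3) and 76.5 ± 9.76 CPM (SD, n = 4). The log2 fold change was -0.53 ± 0.11 (SE), with a 95% interval from -0.77 to -0.30, and the edgeR adjusted p was 0.102. By its p, Trpv4 ranked 53 of 14869 genes and 18 among those with a negative log2 fold change. Of the 7 genes it lay closest to the threshold. Without the count filter its edgeR adjusted p was 0.00906 (0.13% of 26065 genes were called as lower there), and over all alternatives the adjusted p ran from 0.00697 to 0.322.

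Fxyd1 encodes phospholemman and lies on chromosome 7 (30751103 to 30758332, minus strand). It had 68.1, 75.5 and 70.2 CPM with red blood cells and 117.8, 87.3, 120.7 and 84.7 CPM in saline 1, 2, 3 and 4. The red blood cell libraries were close together, while the saline libraries formed a high pair (1 and 3) and a low pair (2 and 4). The means were 71.3 ± 3.79 CPM (SD, n = 3) and 102.6 ± 19.3 CPM (SD, n = 4). The log2 fold change was -0.53 ± 0.13 (SE), with a 95% interval from -0.83 to -0.23 and an edgeR adjusted p of 0.164. Saline 1 and 3 were also the higher saline libraries for Trpv4, Aqp1, Atp1b1 and Atp1b2, but not for Atp1b3 or Aqp4. The same held for the summed erythroid markers (3317 and 3129 CPM, against 2307 and 2222 CPM in saline 2 and 4). It also held for total counts (6732139 and 8386928, against 6219528 and 4393860). In red blood cells 1, 2 and 3 the erythroid sum was 2859, 2825 and 2272 CPM. Total counts of these libraries were 7944404, 6752523 and 5479812. Trpv4 (57.9, 53.0 and 48.1 CPM) fell in the same order as both, while Aqp1 (924, 941 and 981 CPM) rose. Fxyd1, Atp1b1 and Atp1b2 followed neither order. An order of 3 values easily arises by chance. The part of the erythroid markers or of depth in these values was not tested.

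**Figure D2:**
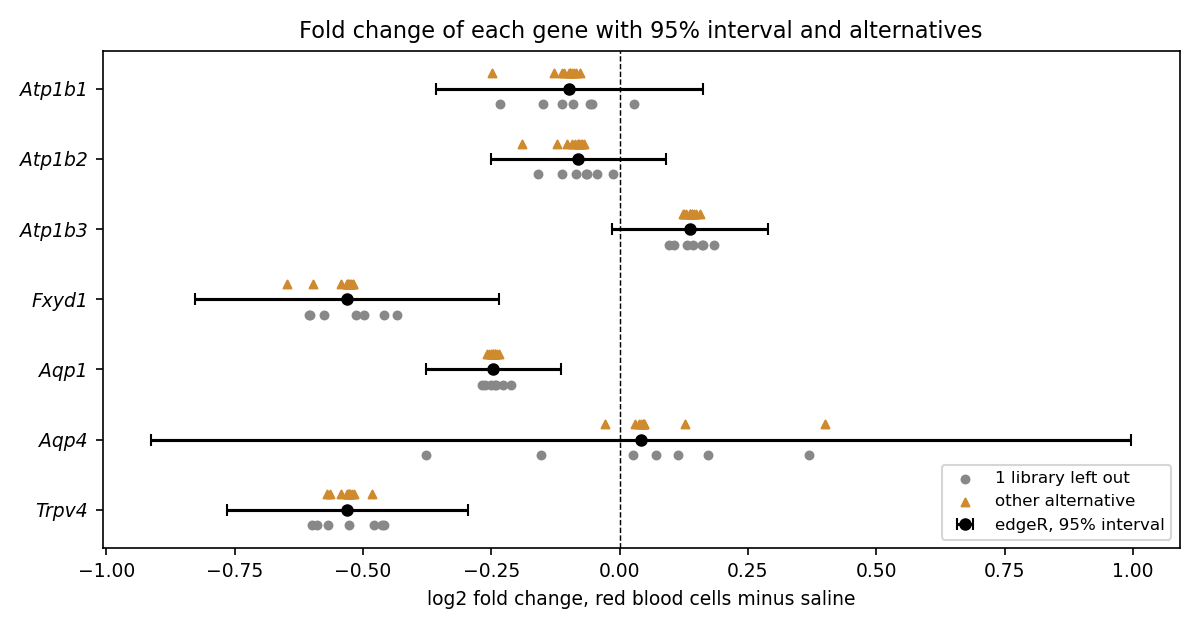
Log2 fold change (red blood cells minus saline) of each gene on the x axis, with the edgeR estimate and its 95% interval in black, fits without 1 library as grey circles and other alternatives as orange triangles. All points of Fxyd1 (-0.65 to -0.43), Trpv4 (-0.60 to -0.46) and Aqp1 (-0.27 to -0.21) lie below 0, while those of Atp1b1 and Aqp4 fall on both sides.

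Because Aqp1, Trpv4 and Fxyd1 shared a direction, the 250 bases before the RefSeq start of each are shown, with matches to the motifs searched in capitals. The sequences are RefSeq's on GRCm38.p6, another build than the table's, and run 5′ to 3′ on the gene's strand. The windows are chr6:55336049-55336298 (plus strand) for Aqp1, chr5:114658422-114658671 (minus strand) for Trpv4 and chr7:31054854-31055103 (minus strand) for Fxyd1.
Aqp1: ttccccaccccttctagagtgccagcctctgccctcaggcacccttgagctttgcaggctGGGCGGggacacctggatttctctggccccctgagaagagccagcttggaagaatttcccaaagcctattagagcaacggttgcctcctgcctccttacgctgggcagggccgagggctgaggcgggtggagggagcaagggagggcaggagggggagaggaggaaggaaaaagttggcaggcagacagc
Trpv4: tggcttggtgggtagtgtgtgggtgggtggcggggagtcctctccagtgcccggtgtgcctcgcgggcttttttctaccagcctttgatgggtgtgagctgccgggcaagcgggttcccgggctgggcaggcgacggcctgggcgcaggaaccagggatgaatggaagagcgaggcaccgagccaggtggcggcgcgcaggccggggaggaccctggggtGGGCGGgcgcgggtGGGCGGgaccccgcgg
Fxyd1: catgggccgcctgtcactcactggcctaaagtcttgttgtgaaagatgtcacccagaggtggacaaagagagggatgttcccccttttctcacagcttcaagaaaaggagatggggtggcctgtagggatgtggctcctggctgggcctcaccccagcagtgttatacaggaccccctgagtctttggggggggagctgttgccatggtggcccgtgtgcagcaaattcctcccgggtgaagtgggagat
Of the 7 genes, 5 had a window in the RefSeq table (not Atp1b2 or Aqp4). The motifs were the GC box GGGCGG, the TATA box TATAAA, the OTX2-type motif TAATCC, the E-box CACGTG, the NFAT5-type core TGGAAA and the AP-1 motif TGANTCA. Each was searched on both strands, and none of the matches shown overlapped another. The GC box had 1 match in Aqp1 (190 bases before the start), 2 in Trpv4 (30 and 16 bases before it) and 0 in Fxyd1. Among 32851 windows of this length in the RefSeq table, 32.7% held it. The other 5 motifs had 0 matches in these 3 windows and occurred in 12.4% (TATA box), 6.25% (OTX2-type), 6.02% (E-box), 18.6% (NFAT5-type) and 6.75% (AP-1) of all windows. In the genes whose groups overlapped, Atp1b1 held 2 GC boxes, and Atp1b3, which has 2 windows, held 5 GC boxes in one and 1 E-box and 1 NFAT5-type core in the other. GC content was 62.0% in Aqp1, 72.0% in Trpv4 and 57.2% in Fxyd1. These matches describe the letters and say nothing on binding.

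The 3 beta subunit genes differed less between the groups than Fxyd1 or Trpv4. Atp1b1, the main beta subunit of most epithelia, lies on chromosome 1 (164264668 to 164285924, minus strand). It had 300.4, 358.5 and 251.5 CPM in red blood cells 1, 2 and 3 and 351.9, 289.9, 346.8 and 310.6 CPM in the saline libraries. Red blood cells 2 held the highest value of all 7 libraries and red blood cells 3 the lowest. Its log2 fold change was -0.10 ± 0.12 (SE), with a 95% interval from -0.36 to 0.16 and an edgeR adjusted p of 0.882. Without red blood cells 3 it was 0.03. That library also held 3097 CPM of summed mesenchymal and mural markers, where the other libraries had between 1648 and 2114 CPM, and the part of this in the low value was not tested. An opposite-strand gene, Nme7, overlaps 203 bases (7.84%) of the exons of Atp1b1. It had 1830 counts in all libraries together, against 14631 for Atp1b1, and no source used here gives the strand setting of the counting.

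Atp1b2, a beta subunit also known as an adhesion molecule of glia, lies on chromosome 11 (69490554 to 69496786, minus strand). It had 263, 322 and 287 CPM with red blood cells and 317, 305, 323 and 283 CPM with saline. The groups overlapped. Red blood cells minus saline gave a log2 fold change of -0.08 ± 0.08 (SE), with a 95% interval from -0.25 to 0.09 and an edgeR adjusted p of 0.843. Fold changes below 0.840 or above 1.06 thus lie outside the interval.

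Atp1b3, the third beta subunit, lies on chromosome 9 (96214708 to 96246368, minus strand) and was the one whose mean was higher with red blood cells. It had 197.6, 220.7 and 215.8 CPM with red blood cells and 194.6, 175.8, 198.4 and 200 CPM with saline. Red blood cells 1 lay below saline 3 and 4, so the groups overlapped. A log2 fold change of 0.14 ± 0.07 (SE) resulted, with a 95% interval from -0.02 to 0.29 and an edgeR adjusted p of 0.583. The summed CPM of 10 macrophage markers moved the same way. It was 368 to 525 CPM with red blood cells and 234 to 307 CPM with saline, and saline 2 was the lowest library for both. The part of this in the Atp1b3 values was not tested.

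The make-up of the beta subunit transcripts was compared within each library. Per length, Atp1b1 made up 43.5 ± 3.91% (SD, n = 3) of them with red blood cells and 45.9 ± 1.36% (SD, n = 4) with saline, Atp1b2 26.2 ± 1.48% and 27.2 ± 1.42%, and Atp1b3 30.3 ± 2.599% and 26.9 ± 1.33%. Red blood cells 3 had the lowest share of Atp1b1 (39.0%) and the highest of Atp1b3 (33.1%). The differences were -2.35, -0.991 and 3.34 percentage points, and none passed (exact two-sided permutation test over 35 splits, p = 0.400, 0.457 and 0.114). Adjusted over the 5 ratios tested, these exact p-values were 0.571, 0.571 and 0.286. Without red blood cells 3 the differences were -0.103, -1.81 and 1.91 percentage points. That of Atp1b1 was -3.63 points without red blood cells 2, and that of Atp1b2 was -0.353 points without red blood cells 1 and -0.339 points without saline 2.

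Fxyd1 relative to the summed beta subunits separated the groups. Red blood cells 1, 2 and 3 had log2 TPM ratios of -4.17, -4.26 and -4.09, against -3.54, -3.80, -3.52 and -3.90 in saline 1 to 4. All 3 red blood cell libraries lay below all 4 saline libraries, with a difference of -0.48. The exact two-sided permutation p was 0.0571, the smallest that 3 against 4 libraries allow, and 0.286 after adjustment over the 5 ratios. The design cannot reach 0.05 with this test.

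**Figure D3:**
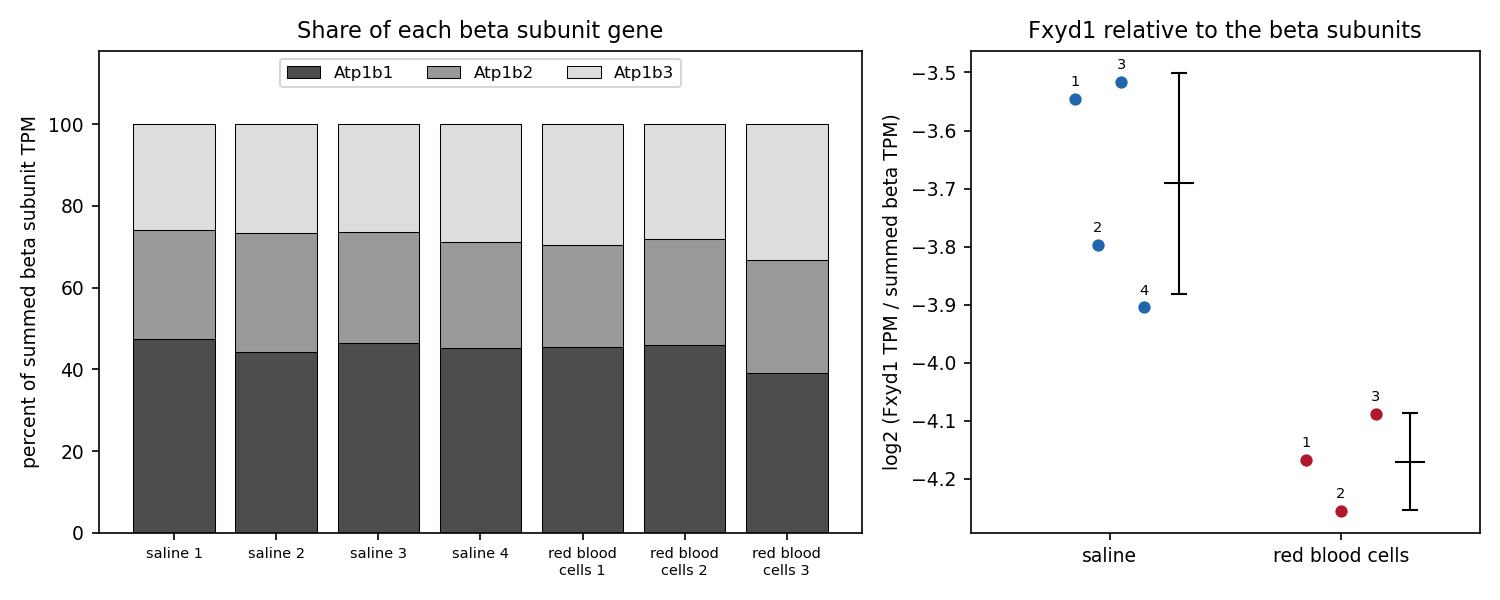
Left, share of Atp1b1, Atp1b2 and Atp1b3 in the summed beta subunit TPM of each library, as stacked bars in percent. Right, log2 ratio of Fxyd1 TPM to the summed beta subunit TPM by library with the mean and SD beside the points. Atp1b1 makes up 44.3 to 47.35% in 6 libraries and 39.0% in red blood cells 3, and the Fxyd1 ratio of the red blood cell libraries (-4.26 to -4.09) lies below that of the saline libraries (-3.90 to -3.52).

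Aqp4, on chromosome 18 (15522451 to 15544039, minus strand), was close to the detection floor. It had 18, 5 and 9 counts in red blood cells 1, 2 and 3 and 6, 12, 14 and 7 counts in the saline libraries. On the CPM scale this was 0.750 to 2.25 with red blood cells and 0.886 to 1.92 with saline, where 3 counts correspond to 0.358 to 0.683 CPM. The groups overlapped fully. The log2 fold change of 0.04 ± 0.44 (SE) had a 95% interval from -0.91 to 0.996, and the edgeR adjusted p was 0.992. The log2 TPM ratio of Aqp1 to Aqp4 was 10.5 ± 0.817 (SD, n = 3) with red blood cells and 10.7 ± 0.513 (SD, n = 4) with saline (exact permutation p = 0.743, and 0.743 after adjustment over the 5 ratios). Of the glial markers Gfap, an intermediate filament of astrocytes, had 0.239 to 1.12 CPM over the 7 libraries, while the glutamate transporter genes Slc1a3 (56.4 to 119.6 CPM) and Slc1a2 (45.0 to 68.4 CPM), the connexin gene Gja1 (296 to 416.3 CPM) and Aldh1l1 (8.87 to 13.4 CPM) were higher. These were chosen after their values were seen.

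Among 15 other sodium pump and FXYD genes, 9 could be tested and none passed in either direction (0 at an unadjusted p under 0.05 in edgeR, 0 by DESeq2). Their median log2 fold change was -0.14, with 6 of 9 below 0. Over all genes tested the median was -0.00444 and 51.3% were below 0. Fxyd5, a pump regulator of the FXYD family, had a log2 fold change of 0.27 ± 0.21 (SE). Nkain4, which encodes a protein that interacts with the pump, had -0.14 ± 0.13 (SE). Fxyd4 had 0 counts in every library.

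Of 10 other aquaporin genes, 2 could be tested and none passed (0 at an unadjusted p under 0.05 in edgeR, 0 by DESeq2, median log2 fold change -0.05). Mip, the lens aquaporin, had 24.4 ± 2.38 CPM (SD, n = 3) with red blood cells and 27.2 ± 2.995 CPM (SD, n = 4) with saline. More than 50% of its exon bases (56.3%) overlap an opposite-strand gene, Gm26847, so its level is uncertain. Aqp11, an intracellular aquaporin, had 13.9 ± 0.563 and 13.4 ± 1.03 CPM. Aqp2, Aqp6 and Aqp12 had 0 counts in every library. Per length, Aqp1 (1240 TPM with saline) stood far above Mip (38.1 TPM) and Aqp11 (30.7 TPM).

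All 10 genes that anchor Aqp4 or stand beside it at glial membranes could be tested, and none passed (0 at an unadjusted p under 0.05 in edgeR, 0 by DESeq2, median log2 fold change -0.07). The extracellular organizer Agrn had 0.24 ± 0.11 (SE), the syntrophin Sntb1 -0.22 ± 0.10, utrophin (Utrn) -0.11 ± 0.07 and dystroglycan (Dag1) -0.02 ± 0.06. Dag1 was abundant, at 257 ± 10.5 TPM with saline (SD, n = 4), in a tissue where Aqp4 itself was near the floor.

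Of 16 other Trpv channel genes and partners of Trpv4, 12 could be tested and none passed over all genes (0 lower and 1 higher at an unadjusted p under 0.05 in edgeR, 0 by DESeq2, median log2 fold change -0.06). The one higher was Kcnn4, a potassium channel opened by calcium, with 1.75, 3.00 and 2.53 CPM with red blood cells and 1.77, 0.959, 0.837 and 0.924 CPM with saline (edgeR adjusted p = 0.333). Piezo1, a channel opened by membrane stretch, had a log2 fold change of 0.21 ± 0.10 (SE), the Trpv4-binding adaptor Pacsin3 -0.25 ± 0.12 and the calcium store sensor Stim1 -0.17 ± 0.09. Trpv4 was the most abundant Trpv channel per length. Trpv2 had 3.92 ± 1.49 TPM with saline (SD, n = 4), and Trpv1 and Trpv3 had at most 1 count in any library.

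Among 23 other genes of fluid secretion, 22 could be tested and none passed over all genes. In edgeR 3 were lower and 1 higher at an unadjusted p under 0.05. Over all genes tested, 4.48% were lower at that level and 9.52% passed in either direction. DESeq2 called 2 as lower, where it called 0.344% of all its genes as lower, and the median log2 fold change was -0.05. Slc4a5, the sodium bicarbonate cotransporter of the ventricular membrane, had 396 to 448 CPM with red blood cells and 527 to 587 CPM with saline (edgeR adjusted p = 0.0634, log2 fold change -0.39 ± 0.07, SE). The carbonic anhydrase gene Car2 had -0.37 ± 0.10 (edgeR adjusted p = 0.167) and the potassium chloride cotransporter gene Slc12a7 0.28 ± 0.09 (edgeR adjusted p = 0.251). The potassium channel subunit gene Kcne2 (-0.07 ± 0.06) and the carbonic anhydrase gene Car12 (0.03 ± 0.07) were the 2 most abundant of the list per length. Kcne2 was not among the 3 genes lower at an unadjusted p under 0.05 (edgeR unadjusted p = 0.258). Groups did not overlap for 4 of the 22 genes. With red blood cells 3 of them were lower (Slc4a5, Car2 and Kcne2) and 1 was higher (Slc12a7). Over all genes tested, 4.86% lay lower in this way, and the share that lay higher was not computed. Car2 had 233.9 to 309.8 CPM with red blood cells and 314.4 to 381.7 CPM with saline, Kcne2 1250 to 1284 and 1285 to 1440 CPM, and Slc12a7 87.95 to 106.2 and 70.98 to 83.1 CPM.

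**Figure D4:**
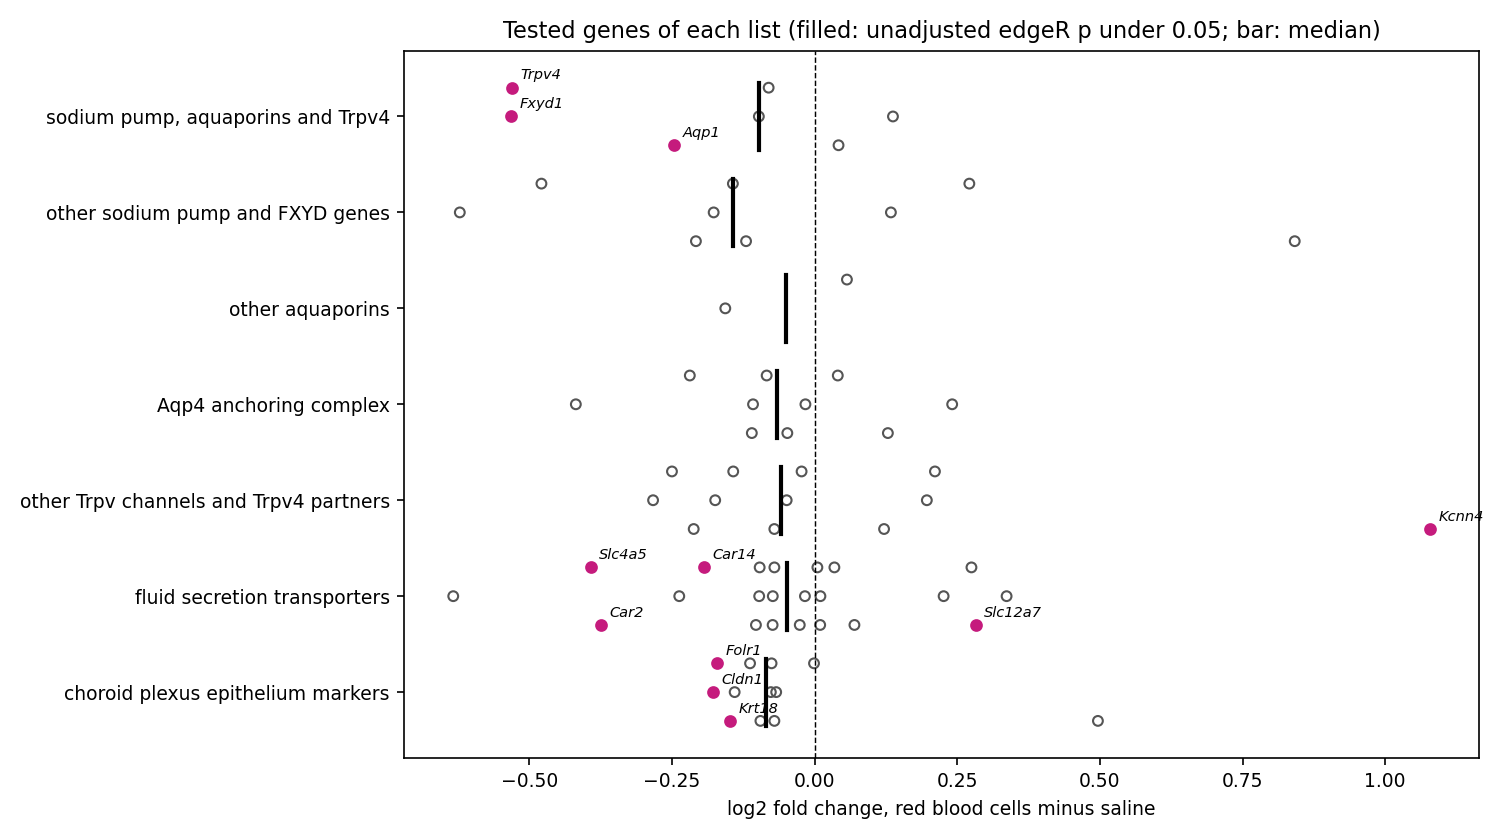
Log2 fold change (red blood cells minus saline, x axis) of every tested gene in 7 lists (rows), with filled points for an unadjusted edgeR p under 0.05 and a bar at the median of the list. Trpv4 and Fxyd1 (both -0.53), Slc4a5 (-0.39) and Car2 (-0.37) lie at the lower end, and the list medians lie between -0.14 and -0.05.

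Markers of the cell types in the tissue were read beside these values. All 12 markers of choroid plexus epithelium were present and tested. Their median log2 fold change was -0.09, and 11 of 12 were below 0, against 51.3% of all genes tested. None passed (3 lower and 0 higher at an unadjusted p under 0.05 in edgeR, 0 by DESeq2). The 3 were Cldn1 (-0.18), Folr1 (-0.17) and Krt18 (-0.15), where 4.48% of all genes tested were lower at that level. Groups did not overlap for 2 of the 12, both lower, against 4.86% of all genes tested in that direction. The summed CPM of the 12 was 17724 to 19093 with red blood cells and 17788 to 22968 with saline. The part of epithelial RNA in the log2 fold changes of Aqp1, Fxyd1 and Trpv4 was not tested. Endothelial markers (10 tested, none passed, median 0.01) summed to 910 to 1375 CPM with red blood cells and 1067 to 1144 CPM with saline. Mesenchymal and mural markers (10 tested, none passed, median 0.09) summed to 1648 to 3097 and 1955 to 2114 CPM, and glial markers (9 of 10 tested, none passed, median 0.01) to 930 to 1274 and 963 to 1044 CPM. Erythroid markers (11 of 12 tested, none passed) had a median of -0.07. Neuronal markers (10 tested, 10 below 0, none passed, median -0.82) summed to 112 to 190 and 166 to 240 CPM. Macrophage markers were above 0 for 10 of 10 genes (median 0.77). All 10 were higher at an unadjusted p under 0.05 in edgeR, where 9.52% of all genes tested passed in either direction. After adjustment edgeR called 1 as higher (Adgre1), where it called 0.0605% of all genes tested in either direction. DESeq2 called 8 as higher, where it called 1.64% of its genes in either direction. Groups did not overlap for 9 of the 10, all higher, and the share of all genes that lay higher was not computed. Of 10 neutrophil markers 2 could be tested and none passed, the sum was 4.87 to 74.3 CPM with red blood cells and 2.40 to 19.2 CPM with saline, and Ly6g had 0 counts everywhere, the only marker that did. In the endothelial, mesenchymal, glial, erythroid, neuronal and neutrophil lists, edgeR gave 1 gene (Snap25, neuronal, lower) at an unadjusted p under 0.05 and DESeq2 called 0.

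The genes whose log2 CPM followed each member most closely over the 7 libraries were taken from the other genes with a mean count of at least 50 (11234 for Aqp4, which lies below that count itself, and 11233 for each of the other 6). With 7 libraries and that many genes, high correlations arise for any profile, and the values are descriptions. For Trpv4 they were Atp2b2, a calcium pump of the plasma membrane (Pearson r = 0.993), and Slc30a9 (0.987). For Fxyd1 they were Gata6 (0.990) and Pcnx (0.983), and for Aqp1 Iqgap2 (0.984) and Tgfa, a growth factor (0.978). Atp1b1 was closest to Plaat3 (0.975) and Uqcrfs1 (0.970), Atp1b2 to Ric1 (0.963) and Map3k9 (0.954), and Atp1b3 to Hpgds, a prostaglandin synthase (0.987), and S100a11 (0.965). For Aqp4, with its few counts, Plk4 (0.972) and Scml2 (0.967) came first.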

How the data were processed

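Poly(A) RNA of 7 pools of lateral ventricle choroid plexus was sequenced from directional libraries (labels' protocols). The authors deposited 1 table of raw read counts per gene, with exon positions and summed exon lengths, as its header shows. Trimming with cutadapt 2.5, alignment with STAR 2.6.1b to GRCm39 and counting with featureCounts 2.0.6 are taken from the tools and build listed in the submitters' processing notes. No source used here gives the annotation, the strand setting or the treatment of multi-mapping reads. Of 40879 genes listed, 6 have lines broken over 2 lines and were left out, and the 6 continuation lines, which name no gene, hold 0.107% of all counts. Total counts per library ran from 4393860 to 8386928.

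Counts were tested with edgeR 4.0.16 (R 4.3.3, quasi-likelihood F test, robust, two-sided, TMM normalization, filterByExpr, no block), adjusted by Benjamini-Hochberg over the 14869 genes kept, at a threshold of 0.05. All 7 genes passed the count filter. Standard errors were derived from the F statistic and intervals from the fit's degrees of freedom. CPM use TMM library sizes, and TPM use the deposited exon lengths. Ratios within a library were tested by exact two-sided permutation (scipy 1.17.1). Alternatives were DESeq2 1.42.0, limma-voom (limma 3.58.1) with and without sample weights, other normalizations and count filters, a fit without robust estimation, a block by replicate number, each library left out and red blood cells 2 and saline 4 left out together. The tests were tried on simulated counts.

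The members and the 13 gene lists were chosen with earlier results of these data known. Named genes are the 7 members, and of each list other than the markers the called genes, those with the lowest p until 3 are named and the 2 most abundant per length. For each member the 2 most correlated genes are named. 1 symbol of the lists (Slc9a3r1) did not match the table. Values of some genes that this rule takes are not reported here.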

Additional observations from a re-analysis of the deposited data

Results flagged for a closer look

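In the 4 saline libraries, 42 values were checked for a library that stands apart, and 7 were found. The mark was a gap to the nearest of the others over the whole range above 0.829, which chance flags about 1 time in 20. Aqp5, Aqp8 and Atp1b4 were added to the 42 outside the rule for named genes, and all were flagged. The 7 therefore cannot be set against that rate. None of the 7 genes described above nor any of their ratios was flagged. Of the other aquaporins, 2, chosen after their values were seen, stood apart in saline 4. Aqp8 had 36.9 CPM there and at most 0.479 CPM in the other saline libraries, and Aqp5 had 15.01 CPM against at most 0.320 CPM. In counts, saline 4 had 160 of Aqp8 and 65 of Aqp5, and also 13 of Trpv6 and 11 of Fxyd3, where the other 6 libraries had at most 8, 2, 1 and 2. Kcne2 had 1440 CPM in saline 4 against 1285 to 1306 CPM, and the neuronal markers summed to 165.8 CPM there against 228.5 to 240.2 CPM. Atp1b4, a muscle protein related to the beta subunits, had 2.99 CPM (25 counts) in saline 3 and at most 0.160 CPM in the other saline libraries. Agrn had 354.8 CPM in saline 3 against 407.8 to 418.2 CPM, and Kcnn4 had 1.77 CPM in saline 1 against 0.837 to 0.959 CPM.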

How the results depend on the processing

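None of the 7 genes passed in the edgeR fit, DESeq2 called 3 (Aqp1, Fxyd1 and Trpv4) and edgeR without the count filter 1 (Trpv4). In the other 16 alternatives the count was 0. The log2 fold change of Aqp1 ran from -0.27 to -0.21 over 18 alternatives (adjusted p 0.00229 to 0.374), that of Fxyd1 from -0.65 to -0.43 (adjusted p 0.0191 to 0.376) and that of Trpv4 from -0.60 to -0.46, so all 3 kept their direction. So did Atp1b2 (-0.19 to -0.01) and Atp1b3 (0.10 to 0.18). Atp1b1 turned to 0.028 without red blood cells 3 (-0.234 to 0.028 over the libraries left out). Aqp4 turned to -0.028 with limma-voom, -0.377 without red blood cells 1 and -0.154 without saline 1 (-0.377 to 0.369 over the libraries left out), and it was not tested under the filter at a mean count of 50. The difference in the Aqp1 to Aqp4 ratio was -0.18 and turned to 0.178 without red blood cells 1 and 0.0643 without saline 1 (-0.626 to 0.178 over the libraries left out). The other 4 ratios kept their direction, and over the libraries left out the differences in share ran from -3.63 to -0.103 percentage points for Atp1b1, -1.81 to -0.339 for Atp1b2 and 1.91 to 4.44 for Atp1b3.

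Over all genes, 9 passed in edgeR, 282 in DESeq2, 28 in limma-voom with sample weights, 136 without the count filter, 16 without robust estimation and 40 without red blood cells 2 and saline 4. Leaving out red blood cells 1, 2 or 3 gave 17, 34 or 283 genes, leaving out saline 1, 2 or 3 gave 1 gene each time, and leaving out saline 4 gave 5. With the replicate block 2 genes passed, and none of the 7 (Aqp1 -0.25, Fxyd1 -0.60, Trpv4 -0.57). Same-numbered libraries did not deviate together (correlations of deviations -0.0595, -0.166 and -0.196). Deviations from the means of so few libraries cannot exclude that the numbers pair the samples. The cause of these changes was not tested. Depth limits Aqp4 above all, with 5 to 18 counts per library.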
